A study of Rattus norvegicus with 24 samples.

Results

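The nuclear genes for subunits of respiratory complexes II to V and for cytochrome c were followed in the heart of rats fed rotenone, a plant-derived inhibitor of complex I. The members were the array rows annotated with exactly 1 symbol that was Sdha, Sdhb, Sdhc, Sdhd, Cyc1 or Cycs, or that began with Uqcr, Atp5 or Cox4 to Cox8, and each gene was represented by its brightest transcript cluster. This gave 52 of the 22093 genes with 1 symbol, of which 43 were subunits or close partners of the complexes and 9 were copies of such genes. The 43 comprised 4 genes of complex II, 9 of complex III, cytochrome c, 14 of complex IV and 15 of complex V. RNA from the tip of the left ventricle was measured in male Wistar rats (RccHan, aged 7 to 8 weeks), each on its own Affymetrix Rat Transcriptome Array. The 6 groups of 4 rats received either untreated food or feed containing 400 ppm rotenone for 1, 3 or 14 days, and every rotenone group was compared with the control group of its own day. Rotenone rats weighed less than controls and no group was matched for body weight, so effects of rotenone and of lower body weight cannot be told apart. Cage assignments were not used here.

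Complex II passes electrons from succinate to ubiquinone, complex III passes them from ubiquinol to cytochrome c, and complex IV passes them on to oxygen. Complexes III and IV pump protons, and complex V, the ATP synthase, uses the resulting gradient to make ATP. Electrons from succinate enter the chain after complex I, the site that rotenone blocks. The heart is rich in mitochondria, and most subunits of these complexes are encoded in the nucleus and imported.

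Values are log2 intensities, and a change is rotenone minus control on that scale. An array intensity was read as background below 8.44, which 95% of the 1153 negative controls did not exceed. Above that bound lay 40 of the 52 members and 35 of the 43 subunit genes. The subunit genes below it were Uqcrfs1, Cox5b, Cox8a, Cox4i2, Cox7b2, Cox8c, Atp5d and Atp5mc3, so their changes carry less weight. Of these, Cox7b2 and Cox8c are isoforms known mainly from the testis. The chosen transcript clusters of Atp5f1b and Cox6a2 lay within 1 log2 unit of the top of the scale at 19.93, where changes may be compressed. The defining heart genes were present, as 10 of 10 measured cardiomyocyte markers lay above the bound on summed intensities of 3948308 to 4611103. None of the 6 leukocyte and 4 adipocyte markers lay above it. Array medians ran from 30.6 to 36.5 on the linear scale, and the mean correlation of an array with its own group ran from 0.986 to 0.990.

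The promoters of the 4 members that passed the test in any comparison are shown, so that their sequences can be set beside their values. They run from 250 bases before to 50 after the RefSeq start of the gene (build GRCr8), 5′ to 3′ on the gene's strand. Capitals mark matches on either strand to CCGGAAG (the ETS motif bound by GABP) or AAGGTCA (the motif of oestrogen-related receptors).
Uqcrq (chr10:38089929-38090228, minus strand): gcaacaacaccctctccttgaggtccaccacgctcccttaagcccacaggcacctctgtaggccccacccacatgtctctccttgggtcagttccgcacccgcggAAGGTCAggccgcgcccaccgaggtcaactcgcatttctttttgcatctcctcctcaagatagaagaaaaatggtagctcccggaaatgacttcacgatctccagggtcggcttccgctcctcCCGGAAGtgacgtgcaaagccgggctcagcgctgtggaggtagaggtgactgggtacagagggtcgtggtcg
Atp5if1 (chr5:150026628-150026927, minus strand): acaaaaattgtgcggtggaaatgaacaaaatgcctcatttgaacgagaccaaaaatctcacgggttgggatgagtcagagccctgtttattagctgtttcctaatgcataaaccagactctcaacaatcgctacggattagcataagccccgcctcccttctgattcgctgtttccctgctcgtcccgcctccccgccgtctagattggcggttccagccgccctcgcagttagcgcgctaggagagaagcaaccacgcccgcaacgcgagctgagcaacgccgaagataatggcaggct
Cox4i1 (chr19:65630133-65630432, plus strand): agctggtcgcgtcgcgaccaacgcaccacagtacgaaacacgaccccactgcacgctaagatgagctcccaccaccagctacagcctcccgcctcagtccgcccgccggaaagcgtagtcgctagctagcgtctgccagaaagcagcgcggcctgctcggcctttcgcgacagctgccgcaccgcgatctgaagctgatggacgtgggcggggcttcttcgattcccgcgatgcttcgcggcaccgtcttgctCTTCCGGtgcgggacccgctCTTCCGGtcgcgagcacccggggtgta
Cox7a2 (chr8:89601100-89601399, minus strand): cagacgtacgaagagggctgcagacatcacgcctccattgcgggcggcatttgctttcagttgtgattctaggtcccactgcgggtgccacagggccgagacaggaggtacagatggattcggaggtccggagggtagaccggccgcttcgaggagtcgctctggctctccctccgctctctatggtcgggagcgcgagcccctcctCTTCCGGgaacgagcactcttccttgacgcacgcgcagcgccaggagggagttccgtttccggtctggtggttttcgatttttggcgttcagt
The promoter of Uqcrq held 1 match to each motif, that of Cox4i1 held 2 ETS matches and that of Cox7a2 held 1. No match lay in the window of Atp5if1, and none of these matches overlapped another. A promoter was found for 36 of the 43 subunit genes. The ETS motif was in 13 of the 36 (36.1%), against 8.75% of all 33469 rat promoters of the same length. The oestrogen-related receptor motif was in 7 (19.4%), against 4.61% of all. The YY1 motif AAGATGGC was in 6 (16.7%), against 3.17% of all. For NRF1 a longer form with a free middle base was searched first and was in 5 (13.9%), against 4.25% of all. The shorter form GCATGCGC, added after that result was seen, was in 7 (19.4%), against 2.47%. Both strands were searched for each motif, and the 2 NRF1 forms can overlap. These matches describe letters only.

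After 1 day the subunit genes stood close to their controls. None of the 52 members passed the test (limma with Benjamini-Hochberg adjustment, adjusted p below 0.05). It was passed by 0.49% of all 68842 transcript clusters and by 2.24% of those above the background bound. The 95% intervals of 43 of the 43 subunit genes lay inside a change of 1.5-fold in either direction. The median change of the 43 was 0.00 log2 units, against 0.02 over all transcript clusters. Of the 43, 1 had an unadjusted p below 0.05, where 8.29% of all transcript clusters did. With no overlap between groups, 2 were higher (Sdha and Uqcrc2) and 4 lower (Sdhc, Cyc1, Uqcrb and Atp5d), against 2.84% and 2.88% of all. The median of the 43 was −0.14 with array medians set equal and 0.10 after quantile normalization, so its direction on day 1 depends on the scaling. Complex II, fed by succinate, gave −0.17 ± 0.08 (SE) for the membrane anchor Sdhc, with an adjusted p of 0.59, and 0.06 ± 0.07 for the flavoprotein Sdha.

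Sdha stayed within a narrow range throughout. Its control values were 15.93, 15.96, 15.93 and 15.94 on day 1, 15.99, 16.00, 15.85 and 15.89 on day 3, and 16.03, 15.95, 15.99 and 16.02 on day 14. Its rotenone values were 16.03, 15.96, 16.00 and 15.99 on day 1, 16.10, 16.06, 16.01 and 15.87 on day 3, and 16.14, 15.93, 16.03 and 16.01 on day 14. The groups did not overlap on day 1 and overlapped on days 3 and 14. The changes were 0.06, 0.08 and 0.03, and the day 14 interval ran from −0.12 to 0.19. On day 14 the 4 genes of complex II, including the iron-sulphur subunit Sdhb at 0.09 and the anchors Sdhc at 0.02 and Sdhd at −0.06, all had intervals inside 1.5-fold.

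After 3 days several members of complexes IV and V lay higher than the controls of that day, but none of the 52 passed the test. It was passed by 0.84% of all transcript clusters and by 2.91% of those above the background bound. Only 14.7% of all transcript clusters lay above that bound. Of the 43 subunit genes, 7 were higher with no overlap between groups (Sdhb, Cox4i1, Cox7a2, Cox8b, Atp5f1e, Atp5mc2 and Atp5if1) and 0 were lower, against 3.72% and 3.21% of all transcript clusters. In each of these 7 the day 3 control mean was the lowest of the 3 control means. For Atp5mc2 the control means were 14.51, 14.35 and 14.59 on days 1, 3 and 14, and the day 3 rotenone mean was 14.55. An unadjusted p below 0.05 was found for 5 of the 43, all higher, and for 10% of all transcript clusters. The median change of the 43 was 0.05, and it was −0.01 with equal array medians and 0.02 after quantile normalization. The largest changes of the 43 were 0.45 ± 0.12 for Cox7a2, the ubiquitous isoform of a small complex IV subunit, and 0.40 ± 0.10 for Cox4i1, a subunit that ties complex IV activity to ATP levels. Their adjusted p values were 0.106 and 0.0526. Cox8b, the muscle isoform of another small subunit, changed by 0.35 ± 0.14 with an adjusted p of 0.356. The intervals of 39 of the 43 genes lay inside 1.5-fold. Marker sums also moved on day 3. The 10 cardiomyocyte markers summed to 4418061 to 4611103 under rotenone, above the controls at 3948308 to 4373058. The 8 erythroid markers (307982 to 696642 against 776969 to 900638) and the 8 fibroblast markers (62160 to 103562 against 118859 to 140189) were lower, each with no overlap. Their part in these changes was not tested.

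**Figure D1:**
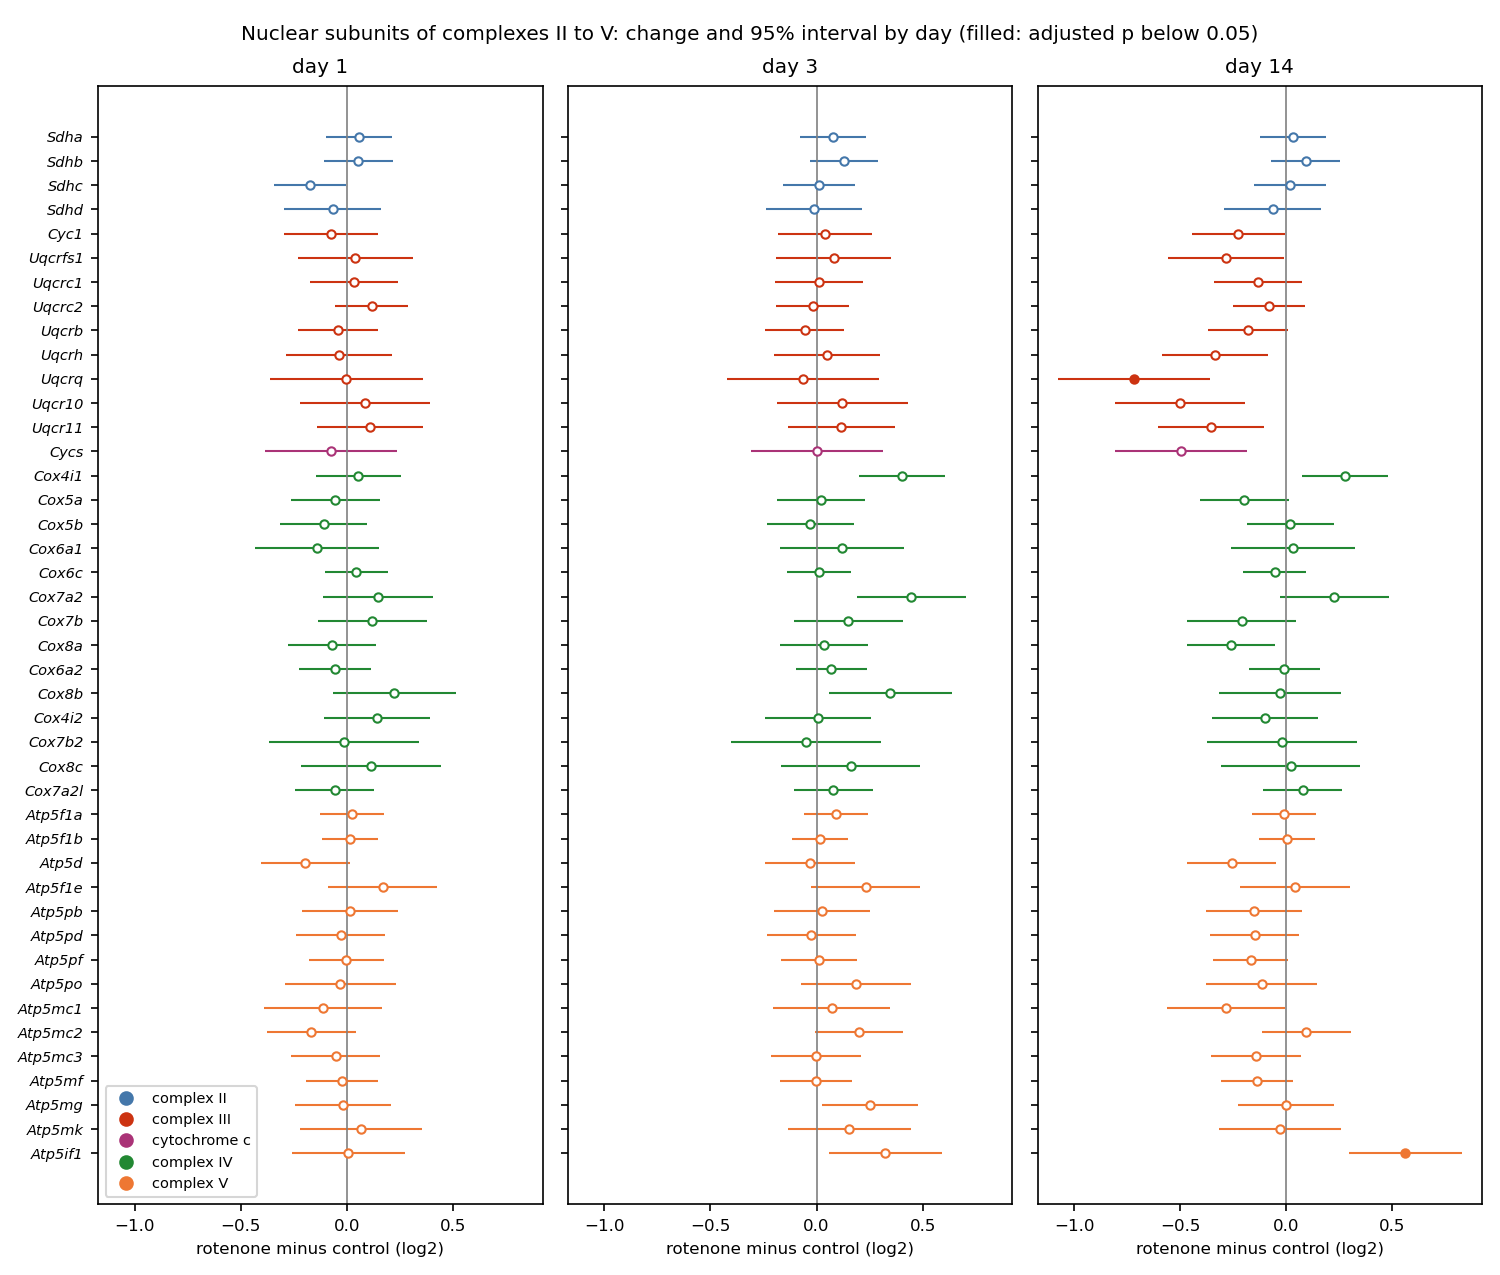
Change of each of the 43 subunit genes (rotenone minus control, log2) with its 95% interval on days 1, 3 and 14, coloured by complex; filled points passed the test. The 9 complex III genes lie below 0 on day 14, where Uqcrq at −0.72 is the lowest point and Atp5if1 at 0.56 the highest.

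On day 14 the complex III subunit Uqcrq fell and the complex V inhibitor Atp5if1 rose, 2 of the 52 members, where 2.89% of all transcript clusters (1.4% higher and 1.49% lower) and 10.7% of those above the background bound passed the test. The 9 complex III genes had a median change of −0.28 and 9 of 9 were negative, of which 1 passed the test, and differences between complexes were not tested. The same count was 9 of 9 with equal array medians (median −0.37) and after quantile normalization (−0.34). The median of all transcript clusters above the bound was 0.04, −0.10 and −0.03 under these 3 scalings. In complex IV, 8 of 14 were negative with a median of −0.01, and in complex V 11 of 15 with a median of −0.12. Of the 43 subunit genes, 12 had an unadjusted p below 0.05 (10 lower and 2 higher), where 14.7% of all transcript clusters did, 5.57% as lower. With no overlap, 2 of the 43 were higher (Atp5if1 and Cox4i1), against 4.58% of all, and 0 were lower. The share of all transcript clusters that were lower with no overlap is not given here, so that 0 is not read as a result. The intervals of 37 of the 43 lay inside 1.5-fold. In a whole piece of tissue, fewer cells of a type and less RNA per cell cannot be told apart.

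Uqcrq, a small subunit of complex III that helps bind ubiquinone, gave 11.11, 10.83, 11.04 and 11.22 in the control rats of day 14. The rotenone rats gave 10.97, 10.08, 10.46 and 9.82. Rotenone rat 1 lay within the control range and the other 3 lay below it. The change was −0.72 ± 0.17, a ratio of 0.608 with an interval of 0.474 to 0.78 and an adjusted p of 0.0245. On day 1 the control rats gave 11.02, 10.90, 11.10 and 10.86 and the rotenone rats 10.93, 10.81, 11.03 and 11.11. On day 3 the values were 11.06, 10.81, 10.77 and 11.08 in controls and 10.98, 10.60, 11.04 and 10.86 under rotenone. The groups overlapped on both of these days, with changes of 0.00 and −0.06. The test of an effect that differed between days gave an adjusted p of 0.562 for Uqcrq, and none of the 52 members passed it, against 0.0145% of all transcript clusters. The call of Uqcrq was lost in 6 of the 8 fits that left out 1 rat of day 14, namely control rats 1, 3 and 4 and rotenone rats 2, 3 and 4, with changes between −0.76 and −0.55. It was also lost in a fit of only the 8 arrays of day 14 (adjusted p 0.239).

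The small subunits Uqcr10, Uqcr11 and Uqcrh ordered the 4 rotenone rats as Uqcrq did. Uqcr10 gave 15.49, 15.10, 15.24 and 15.25 in controls and 15.25, 14.58, 14.90 and 14.34 under rotenone, a change of −0.50 ± 0.15 with an adjusted p of 0.0698. Uqcr11 gave 9.95, 9.99, 9.72 and 10.08 against 9.99, 9.49, 9.56 and 9.29, a change of −0.36 ± 0.12 (adjusted p 0.129). Uqcrh, the hinge protein beside the haem subunit, gave 10.77, 10.50, 10.83 and 11.00 against 10.72, 10.30, 10.50 and 10.24, a change of −0.34 ± 0.12 (adjusted p 0.156). In each of these, rotenone rat 1 was the highest of its group and rat 4 the lowest. The remaining small subunit, Uqcrb, changed by −0.18 ± 0.09 (adjusted p 0.362). Cyc1, the haem subunit that hands electrons to cytochrome c, gave 10.51, 10.41, 10.45 and 10.49 against 10.64, 10.03, 10.29 and 9.998. Rat 1 lay above the control range here and the other 3 below it, with a change of −0.23 ± 0.11 (adjusted p 0.324). The core proteins Uqcrc1 and Uqcrc2, which face the matrix, changed by −0.13 and −0.08.

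Cycs, the soluble carrier between complexes III and IV, gave 17.46, 17.29, 17.55 and 17.37 in controls and 17.41, 16.92, 16.96 and 16.40 under rotenone on day 14. Rat 1 again lay within the control range and the other 3 below it. The change was −0.50 ± 0.15 (adjusted p 0.0778). The name of this transcript cluster places it on chromosome 18, while RefSeq has Cycs on chromosome 4. The dimmer transcript cluster on chromosome 4 changed by −0.43 ± 0.14 (adjusted p 0.113).

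**Figure D2:**
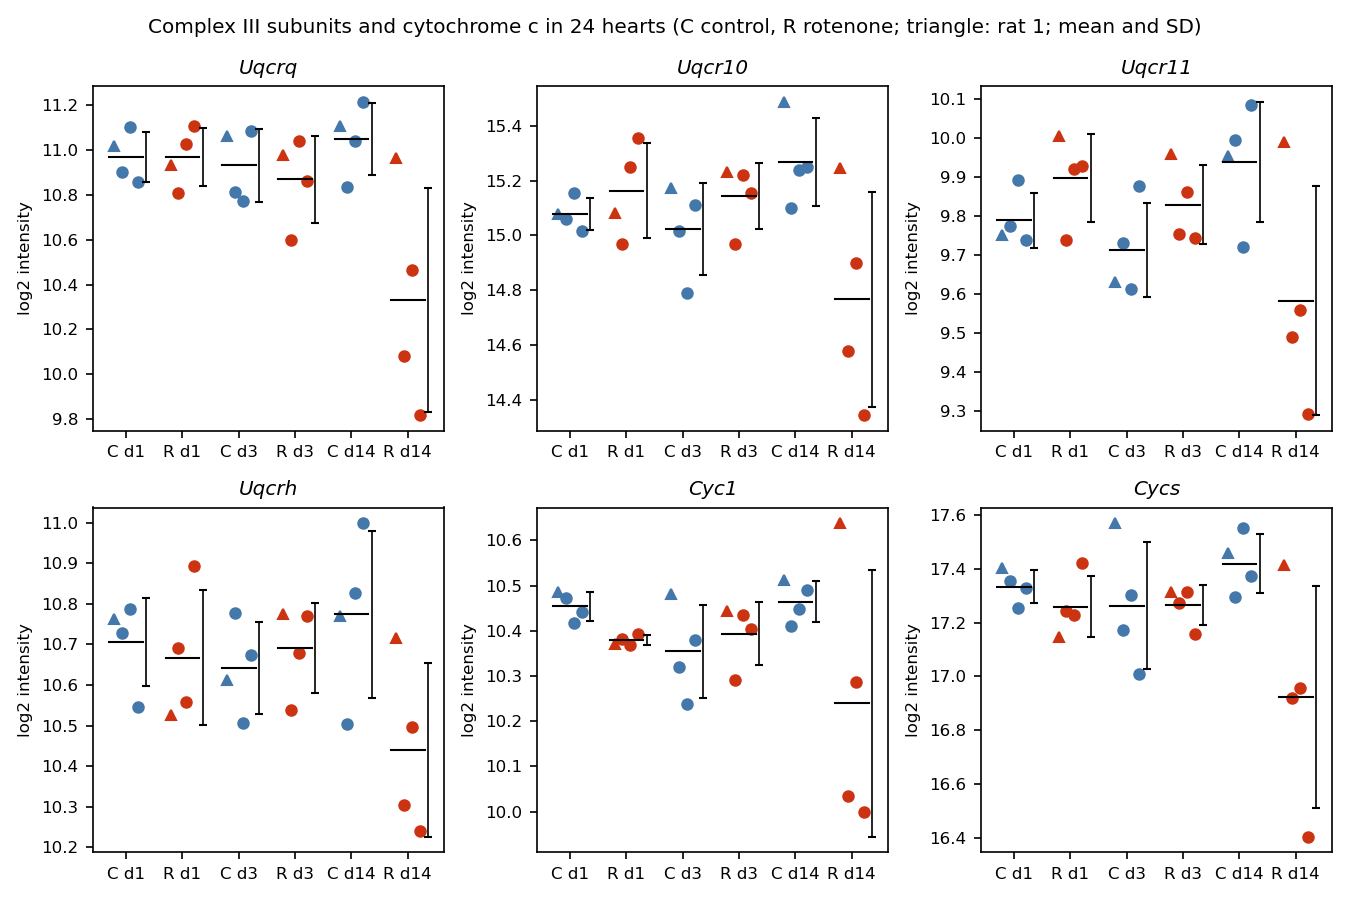
Log2 intensity of Uqcrq, Uqcr10, Uqcr11, Uqcrh, Cyc1 and Cycs in each of the 24 hearts, control (C, blue) and rotenone (R, red) on days 1, 3 and 14; triangles are rat 1, lines the mean and bars the SD of 4 rats. On day 14 the triangle of the rotenone group sits at 10.97 for Uqcrq, near the control rats, and the other 3 rotenone rats lie lower.

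Rotenone rat 1 of day 14 was the highest of its group in 35 of the 43 subunit genes and rat 4 was the lowest in 26, while over all transcript clusters these shares were 32.6% and 26.8%. Over transcript clusters above the background bound they were 23.5% and 23.8%. There rat 1 was the lowest in 50.2% and rat 4 the highest in 39.5%. Over genes with 1 symbol above the bound, rat 1 was the highest in 32.8% and the lowest in 36.8%, and rat 4 was the lowest in 33.7%. For complex III rat 1 was the highest in 9 of 9. In the 35 nuclear complex I subunits rat 1 was the highest in 32 and rat 4 the lowest in 24. The median deviation of the 43 from the control mean was 0.14 in rat 1, −0.11 in rat 2, −0.08 in rat 3 and −0.25 in rat 4. Without rat 1, 12 of the 52 members passed the test, 1 higher and 11 lower, where 4.68% of all transcript clusters passed in either direction and 2.13% passed as lower. Among the 40 members above the background bound 10 passed, 9 of them lower, against 17.1% of all transcript clusters above it, 7.86% as lower. The 11 were Uqcrq, Uqcr10, Uqcr11, Uqcrh, Cyc1, Uqcrfs1, Cycs, Atp5mc1, Atp5d and the copies Uqcr11l1 and Atp5mc1l2. Of these, Uqcrfs1, the iron-sulphur subunit of complex III, and Atp5d lay below the background bound. The copies Uqcr11l1 and Atp5mc1l2 may share probes with Uqcr11 and Atp5mc1, so those rows may not be independent. Uqcrq changed by −0.93 ± 0.14 in that fit (adjusted p 0.000499), Uqcr10 by −0.66 (0.00448), Cycs by −0.66 (0.00465) and Cyc1 by −0.36 (0.017). Rat 1 was singled out after these values were seen. As it was the highest in most of these genes, leaving it out lowers their rotenone mean. The counts and adjusted p values of that fit are therefore descriptive only.

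Rat 1 also differed in other measures. Of 10 erythroid markers 8 were measured, 5 of them above the bound, and their summed intensity was 270593 in rotenone rat 1 of day 14 and 21999, 62841 and 6186 in rats 2, 3 and 4, against 669887 to 1100002 in controls. In that rotenone group rat 1 had the highest array median, 36.3, and the lowest correlation with its own group, 0.986. The fibroblast markers summed to 57243 in rat 1 and to 80538 to 111203 in the others, against 94664 to 133893 in controls. The cardiomyocyte markers summed to 4442331 in rat 1, the lowest of its group, and to 4513874, 4610544 and 4547092 in rats 2, 3 and 4, all above the controls at 4178476 to 4384487. The part of these measures in the changes was not tested.

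**Figure D3:**
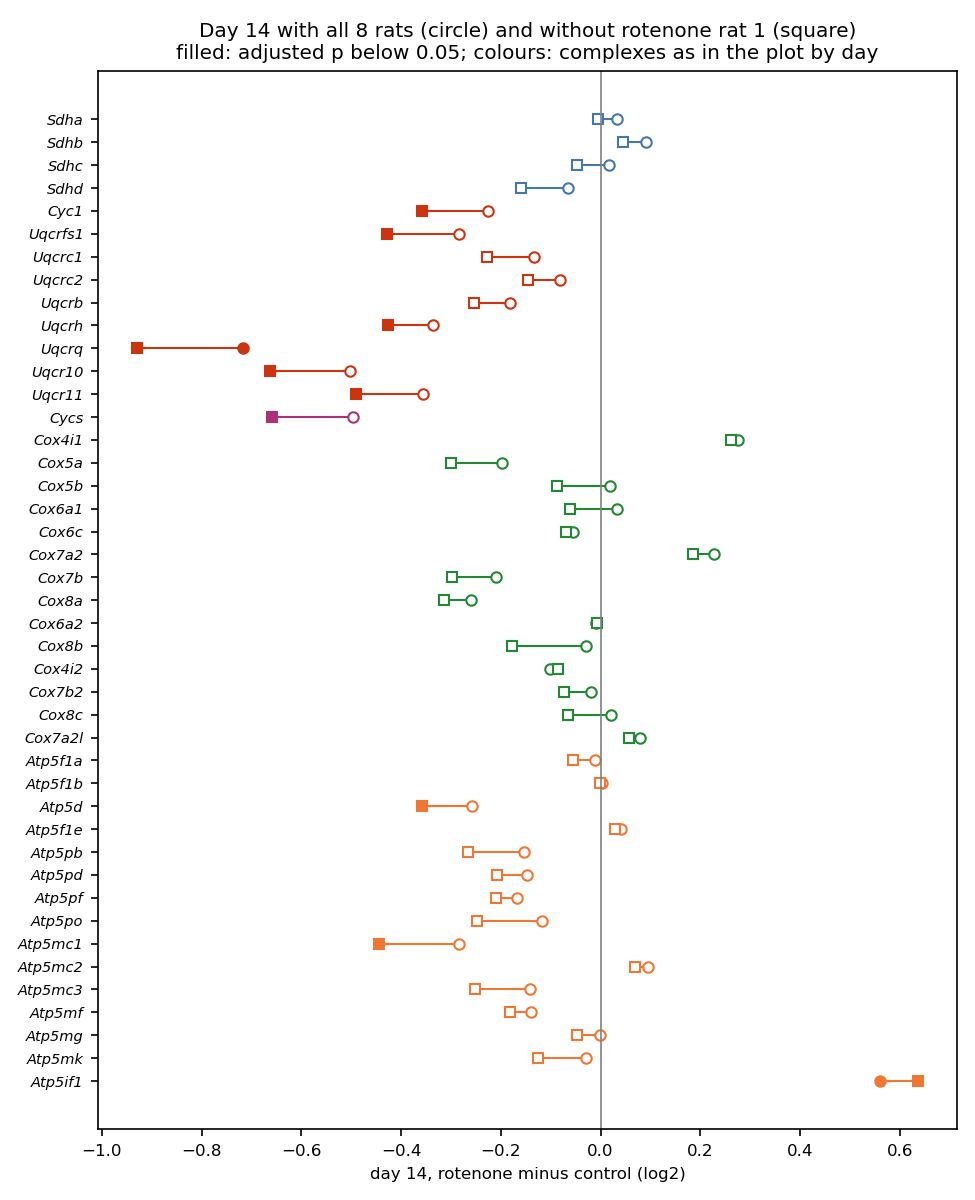
Day 14 change of the 43 subunit genes (log2) with all 8 rats (circles) and without rotenone rat 1 (squares), colours by complex, filled where the test was passed. Uqcrq moves from −0.72 to −0.93 and 6 of the 9 complex III genes are filled without rat 1, while Cox4i1 moves from 0.28 to 0.26.

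Complex V had its clearest value in Atp5if1, which encodes the inhibitor that stops the ATP synthase from running backwards when the proton gradient falls. On day 14 the control rats gave 12.50, 12.57, 12.18 and 12.44 and the rotenone rats 12.76, 13.17, 13.10 and 12.92, with no overlap. The change was 0.56 ± 0.13, a ratio of 1.47 with an interval of 1.23 to 1.77 (adjusted p 0.0185). On day 3 the values were 12.26, 12.18, 12.09 and 11.90 against 12.41, 12.46, 12.56 and 12.29, a change of 0.32 ± 0.13, and on day 1 they were 12.25, 11.92, 12.21 and 12.17 against 12.07, 11.89, 12.14 and 12.47, a change of 0.01. The day 1 groups overlapped and the day 3 groups did not. The day 14 call was lost with equal array medians (0.42, adjusted p 0.279), after quantile normalization (0.49, 0.0607) and in the fit without control rat 3, rotenone rat 2 or rotenone rat 3 (0.48 to 0.52). A fit of only the 8 arrays of day 14 also lost it (adjusted p 0.174). Of the rest of complex V on day 14, the subunits of the catalytic head Atp5f1a and Atp5f1b changed by −0.01 and 0.00. The smaller head subunits were Atp5f1e at 0.04 and Atp5d at −0.26 ± 0.10 (adjusted p 0.207), the latter below the background bound. The c ring genes, whose product turns with the proton flow, were Atp5mc1 at −0.28 ± 0.13 (adjusted p 0.321), Atp5mc2 at 0.09 and Atp5mc3 at −0.14, the last below the bound. The peripheral stalk genes, which hold the head in place, changed by −0.17 (Atp5pf) to −0.12 (Atp5po), and the membrane subunits Atp5mf, Atp5mg and Atp5mk by −0.14, 0.00 and −0.03. The name of the Atp5mk transcript cluster places it on chromosome 10, while RefSeq has Atp5mk on chromosome 1, and the dimmer transcript cluster on chromosome 1 changed by 0.02 ± 0.10 on day 14 (adjusted p 0.964). Atp5pb changed by −0.15 ± 0.11 in the chosen row and by −0.00067 ± 0.098 in a dimmer row (adjusted p 0.595 and 0.998). A dimmer row of Atp5f1e, named for chromosome 14 where RefSeq has chromosome 3, changed by 0.22 ± 0.16 (adjusted p 0.612).

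Over the 3 days together, Cox4i1, Cox7a2 and Atp5if1 rose, 3 of the 52 members, where 5.59% of all transcript clusters (2.52% as higher) and 18.7% of those above the bound passed the test. Cox4i1 was higher by 0.24 ± 0.06 (adjusted p 0.00956), Cox7a2 by 0.27 ± 0.07 (0.0243) and Atp5if1 by 0.30 ± 0.07 (0.0173). With equal array medians the 3 averages were 0.12, 0.12 and 0.19 and none passed, and after quantile normalization Atp5if1 passed and Cox4i1 at 0.23 and Cox7a2 at 0.24 did not. No left-out rat ended any of the 3 calls. Without rotenone rat 1 of day 14 the members called rose to 7, with Uqcrq, Cycs, Atp5d and the copy Atp5mc1l1 lower. The share of all transcript clusters that passed in that fit is not given here. The rise is therefore not read as particular to the members.

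Cox4i1 gave 13.97, 14.05, 13.91 and 14.04 in controls and 14.07, 13.83, 14.22 and 14.08 under rotenone on day 1, where the groups overlapped. It gave 13.96, 13.80, 13.60 and 13.89 against 14.35, 14.27, 14.13 and 14.11 on day 3, and 14.02, 13.86, 13.94 and 14.04 against 14.28, 14.17, 14.31 and 14.19 on day 14. On these 2 days every rotenone rat lay above every control rat. Cox7a2 gave 17.05, 16.96, 17.09 and 16.89 against 17.04, 17.04, 17.29 and 17.22 on day 1, and 16.89, 16.79, 16.47 and 16.98 against 17.31, 17.23, 17.23 and 17.15 on day 3. On day 14 it gave 17.18, 16.61, 16.87 and 17.16 against 17.31, 17.20, 17.17 and 17.04. Its groups were apart on day 3 and overlapped on days 1 and 14. The copy Cox7a2l2 changed by 0.40 ± 0.13 on day 3 (adjusted p 0.201). It gave 17.44, 17.23, 17.16 and 17.57 in controls and 17.90, 17.66, 17.79 and 17.64 under rotenone. Its sequence was not compared with that of Cox7a2. The 2 rows may share probes and so may not be independent. None of the 9 copies passed on any day, and their day 14 changes ran from −0.42 to 0.42. Of the copies, Cox7cl1, Atp5hl1, Atp5mgl1 and Atp5mgl4 lay below the background bound.

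**Figure D4:**
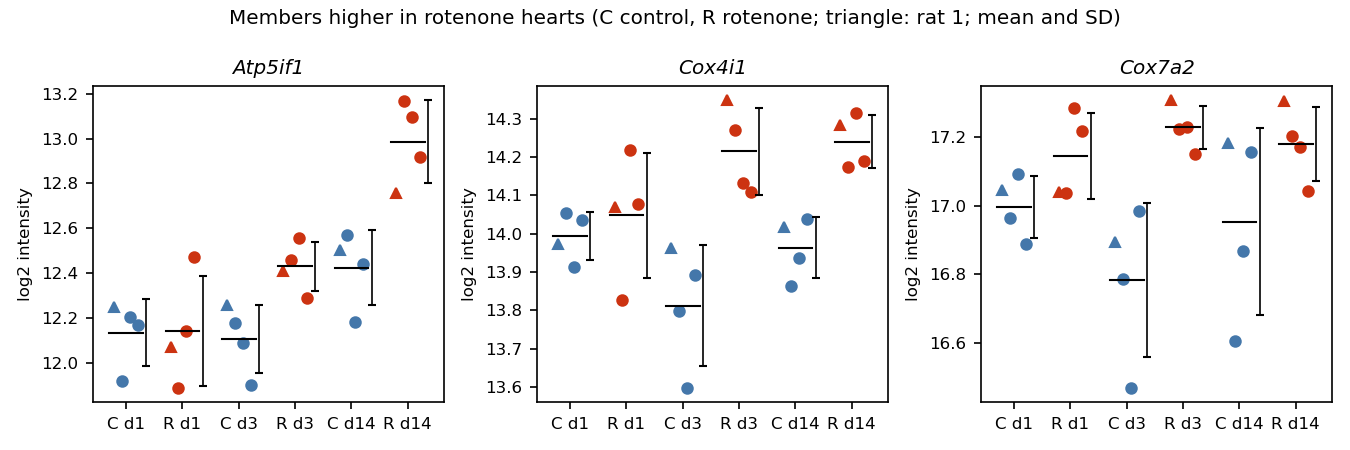
Log2 intensity of Atp5if1, Cox4i1 and Cox7a2 in each of the 24 hearts, control (C, blue) and rotenone (R, red) by day; triangles are rat 1, lines the mean and bars the SD of 4 rats. The rotenone rats of Atp5if1 on day 14 lie between 12.76 and 13.17, above the control rats at 12.18 to 12.57.

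Isoforms of the same subunit were set against each other within each rat in 4 pairs on 3 days, 12 comparisons in all. The pairs were Cox4i1 and Cox4i2, Cox6a1 and Cox6a2, Cox8a and Cox8b, and Atp5mc1 and Atp5mc3, of which Cox6a2 and Cox8b are heart and muscle forms. None passed after adjustment. With 12 comparisons and a smallest possible exact permutation p of 0.0286, no comparison could pass on its own. The adjusted result therefore decides nothing about a single pair. The unadjusted exact permutation p was lowest for Cox8a minus Cox8b on day 3 (−0.31 between groups, p 0.0286, the smallest that 4 against 4 rats allow; adjusted p 0.229). The difference Cox4i1 minus Cox4i2 was 0.39 higher on day 3 and 0.38 higher on day 14 (exact permutation p 0.0571 and adjusted p 0.229 for each). Atp5mc1 minus Atp5mc3 gave −0.14 on day 14 (exact permutation p 0.371, adjusted p 0.637). Cox8a, Cox4i2 and Atp5mc3 lay below the background bound, so in these 3 pairs 1 side carries no measured level. Cox8a gave 7.29, 7.36, 7.16 and 7.62 against 7.26, 7.08, 6.98 and 7.07 on day 14, a change of −0.26 ± 0.10 (adjusted p 0.191). Cox6a1 minus Cox6a2 gave 0.04 on day 14 (exact permutation p 0.714, adjusted p 0.779), with Cox6a2 near the top of the scale, where changes may be compressed.

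Genes related to these complexes were taken as lists. Of 37 measured assembly factors none passed on any day, and for the average over days 5 fell, where 3.07% of all transcript clusters and 10.6% of those above the bound passed as lower. These were Sdhaf2, which fell by 0.34 (the factor that attaches flavin to Sdha), Hccs by 0.46 (which attaches haem to cytochrome c), Cox20 by 0.30, Coa5 by 0.29 and Taco1 by 0.37 (3 complex IV assembly genes). Of 19 regulators, Nfe2l1, a stress-responsive transcription factor, rose by 0.66 ± 0.11 on day 1 (adjusted p 0.004), 1 of the 19, where 0.49% of all transcript clusters and 2.24% of those above the bound passed. On day 14 the oestrogen-related receptor Esrrg fell by 0.39 ± 0.10 (adjusted p 0.042) and Perm1, a muscle regulator of mitochondrial genes, fell by 0.73 ± 0.20 (adjusted p 0.0446), 2 of the 19, where 1.49% of all and 5.44% of those above the bound passed as lower. With equal array medians 0 of the 19 passed on either day. Of 35 nuclear complex I subunits none passed on any day and 31 were negative on day 14 (median −0.16). For the average over days Ndufa1 rose by 0.31. In that comparison 2.52% of all transcript clusters passed as higher, and 18.7% of those above the bound passed in either direction. Without rotenone rat 1, 7 of the 35 passed as lower, where 2.13% of all and 7.86% of those above the bound did. Rat 1 was the highest of its group in 32 of the 35 and was left out after the values were seen. That count is therefore descriptive only. In the citric acid cycle 2 of 16 genes, Dlst and Sucla2, fell by 0.51 and 0.53 on day 14, against the same 1.49% and 5.44%. That list also holds Sdha, Sdhb, Sdhc and Sdhd, which were reported above as complex II. None of 10 cristae genes and 0 of 8 nucleotide and phosphate carriers passed on any day. In untreated rats, day 14 against day 1 gave 0 called members and 0 called transcript clusters in limma, with an unadjusted p below 0.05 for 7.28% of the latter.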

How the data were processed

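Total RNA from about 30 mg of heart (300 ng labelled) was hybridised by the authors, 1 rat per array. The deposited intensity values are linear; the authors corrected them for GC content, applied a signal space transformation and condensed them by RMA, which can stretch or compress changes of bright transcripts. For the software versions, genome build and annotation release: not given in the sources used here. Log2 was taken with no further normalization. Leaving 1738 control probes out of 70580 rows, 68842 transcript clusters entered the test, unfiltered, in limma 3.58.1 (R 4.3.3; data.table, version 1.17.8), with 1 mean per group over 24 arrays and p-values adjusted by Benjamini-Hochberg over all of them. Each adjusted p of the report is from this fit unless another fit, another scaling or an exact permutation test is named. Errors are moderated SE (n = 4 rats per group), which limits precision.

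Symbols came from the array annotation. Members with 1 symbol only were used, so 5 rows with several symbols were left out (naming Cox6b2, Cox7c, Atp5me, Uqcr10 and Atp5f1c beside another gene). Every member is accounted for; values in every rat are given for members called in any comparison, then those with the smallest p until 10, and for Uqcrq, Sdha and Cyc1. Members and lists were chosen with earlier results of these data known. Promoters are from RefSeq (GRCr8). The fit was tested on simulated data. Alternatives are given in the closing section. Figures used Python 3.11.15 and matplotlib 3.10.9.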

Additional observations from a re-analysis of the deposited data

How the results depend on the processing

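Counts of called members moved with the processing. On day 14, where 2 were called, the count was 1 with array medians set equal, 1 after quantile normalization, 4 with only transcript clusters above the median intensity, 6 with 1 transcript cluster per gene, 4 with array weights, and 0 with a minimum change of 1.8-fold or with only the 8 arrays of the day. Leaving out each rat in turn gave 0 to 12. On day 3, where 0 were called, the intensity filter gave 2, 1 transcript cluster per gene gave 2, and a variance trend with robust estimation or array weights gave 1 each (Cox4i1). For the average over days, where 3 were called, equal medians gave 0, quantile normalization 1, the filter 6, 1 transcript cluster per gene 6, a minimum of 1.8-fold 0 and the methods' factorial test 0, and leaving out each rat gave 3 to 7. The cause of these shifts was not tested, except that the filter and 1 transcript cluster per gene test fewer rows. Shares of all transcript clusters called are not given for these settings, apart from the day 14 fit without rotenone rat 1. A moved count is therefore not read as particular to the members. The change of Sdha on day 3, 0.08, turned to −0.0124 with equal medians and −0.0616 after quantile normalization. The other 14 of the 15 changes recomputed under these settings kept their direction.

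With the rat number as a replicate block, the count for the average was 5 and every other count was unchanged. Same-numbered rats are not known to be paired, as the labels give only a replicate number. Of 12 such pairs, 1 correlated above 0.1 (range −0.17 to 0.12) and 1 matched its own number best. A check of this size cannot exclude a pairing. Counts for day 1, for control day 14 against day 1 and for an effect that differed between days stayed 0. The isoform pair count of 1, at an unadjusted exact permutation p below 0.05, was also 1 after quantile normalization. Leaving out a rat was not run for the pairs. With 4 rats per group, small changes are not detectable, and intensity below the background bound gives no measured level.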
